A study of Arabidopsis thaliana with 11 samples.

Results

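The libraries described here are 6 endosperm mRNA samples of Arabidopsis thaliana that fell into 2 expression states cutting across genotype. Set A holds paternal nrpd1 replicates 2 and 3 and wild-type replicate 1. Set B holds paternal nrpd1 replicate 1 and wild-type replicates 2 and 3. The sets were chosen from the total gene counts themselves, so set A is 3 and set B is 3 of the 6 libraries of experiment 2, out of 11 libraries in the series. Differences in total counts between the sets are therefore given as a description, with no test. Tests of the sets were kept for maternal shares, which the choice did not use, and for shares of reads that no gene claimed or that an allele claimed. The latter shares were taken from or set over the same total counts, so they are not independent of the choice. The genotype comparison, which the sets cut across, is tested on total counts.

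Paternal nrpd1 endosperm came from a wild-type Ler mother pollinated by a Col father homozygous for nrpd1a-4, and wild-type endosperm from a Ler mother pollinated by a Col father. NRPD1 is the catalytic core of RNA polymerase IV, the enzyme that starts the small RNA pathway that directs DNA methylation. In all 6 libraries the flowers were emasculated, seeds of crosses between multiple plants were dissected by hand 6 to 7 days after pollination, and libraries were made from polyadenylated RNA with a low-input SMARTer kit, 12 amplification cycles and single reads of 40 bases, per the labels. The labels give both groups the same range of days, so seed age within that range is not recorded per library. Experiment 1, used below for its length trend and list levels, compared 3 libraries of homozygous nrpd1 endosperm (nrpd1a-4 from both parents) with 2 of wild type, at 6 days and with another library kit. Replicates are separate samples per the labels, and nothing says whether they came from separate sets of plants, so p-values measure only the spread between these samples, which may be technical.

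Endosperm surrounds and feeds the embryo. It first divides as a syncytium, then forms cells, and later gives up space to the growing embryo. Storage proteins and oil accumulate in the embryo, and to a lesser degree in the endosperm, as the seed fills, under transcription factors such as LEC1, LEC2, FUS3 and ABI3. The seed coat around it is maternal tissue, whose inner layer makes proanthocyanidin pigments and whose outer layer makes mucilage. Dissected endosperm can carry fragments of both neighbours. In such bulk samples, fewer cells of a type and less RNA per cell cannot be told apart.

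Total counts ranged from 24845721 to 35629462 per library, and 7.05% to 7.82% of them were assigned to an allele. Levels are CPM (a gene's counts as a proportion of the counts of its library, on the usual CPM scale), scaled with TMM factors, which ranged from 0.750 to 1.27, and differences are set A minus set B in mean log2 CPM. Throughout, values are listed as paternal nrpd1 replicate 2, paternal nrpd1 replicate 3 and wild-type replicate 1 for set A, and as paternal nrpd1 replicate 1, wild-type replicate 2 and wild-type replicate 3 for set B. A gene is called separated when the 3 values of set A do not overlap the 3 of set B and the difference is at least 1 on the log2 scale, which is 2-fold. By this rule 1826 of 18901 genes that passed a filter on low counts were separated with set A higher (9.66%) and 1386 with set A lower (7.33%). These shares are the background for the counts below, and since the sets were chosen on these values nothing is read from them. Without paternal nrpd1 replicate 3 the counts were 3084 and 2272, and without paternal nrpd1 replicate 1 they were 2962 and 2896.

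The first principal component carried 51.2% of the variance and ordered the libraries by set, with scores of 112, 23.1 and 61.3 in set A and of -38.2, -96.9 and -61.5 in set B. The second, with 25.0%, held paternal nrpd1 replicate 1 apart from the rest. The states were not tight groups. Spearman correlations of levels across genes were 0.966 between paternal nrpd1 replicate 2 and wild-type replicate 1 of set A, and 0.980 between wild-type replicates 2 and 3 of set B. Paternal nrpd1 replicate 3 of set A was as close to wild-type replicate 3 of set B (0.946) as to paternal nrpd1 replicate 2 of its own set (0.946). The sets were also compared within paternal nrpd1 and, separately, within wild type, with 1 library against 2 in each. The differences of 69.7% of genes had the same sign (Pearson r = 0.461 across genes, which are not independent replicates). After the adjustment for transcript length described below, 63.7% did (r = 0.373). The sets were chosen from these same totals, so nothing is read from this likeness.

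The sets differed along transcript length. Length here is that of the longest RefSeq transcript, and each library's level was taken as its deviation from the gene's mean over the 6 libraries. Among 761 genes with transcripts under 600 bases, the median difference was 1.45 on the log2 scale. It was 0.83 for transcripts of 600 to 1200 bases, 0.03 at 1200 to 2000 bases, -0.54 at 2000 to 3000 bases and -0.84 among 2166 genes over 3000 bases. Short transcripts were thus higher and long ones lower in set A. Separated genes had a median length of 915 bases where set A was higher and 2736 bases where it was lower, against 1705 bases over all genes that passed.

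The trend was not shared by all libraries of a set. Spearman correlations of the deviation with length, across 18827 genes, were -0.724, -0.084 and -0.454 in set A and -0.010, 0.740 and 0.621 in set B. Paternal nrpd1 replicates 3 and 1, one from each set, were nearly flat with length, and wild-type replicate 1 was high mainly for the shortest transcripts. In the libraries of experiment 1 the same correlations lay between -0.159 and 0.292. Because of this trend differences are given as scaled and, in most cases, again after length adjustment, in which the median deviation of genes of like length (60 bins of about 314 genes) was subtracted in each library. After that adjustment 952 of 18827 genes were separated with set A higher (5.06%) and 579 with set A lower (3.08%). The first component still ordered the libraries by set, with scores of 57.7, 45.0 and 43.3 in set A and of -96.4, -35.9 and -13.7 in set B, at 42.6% of the variance. The part of this trend in the differences that follow was not tested beyond that adjustment.

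**Figure D1:**
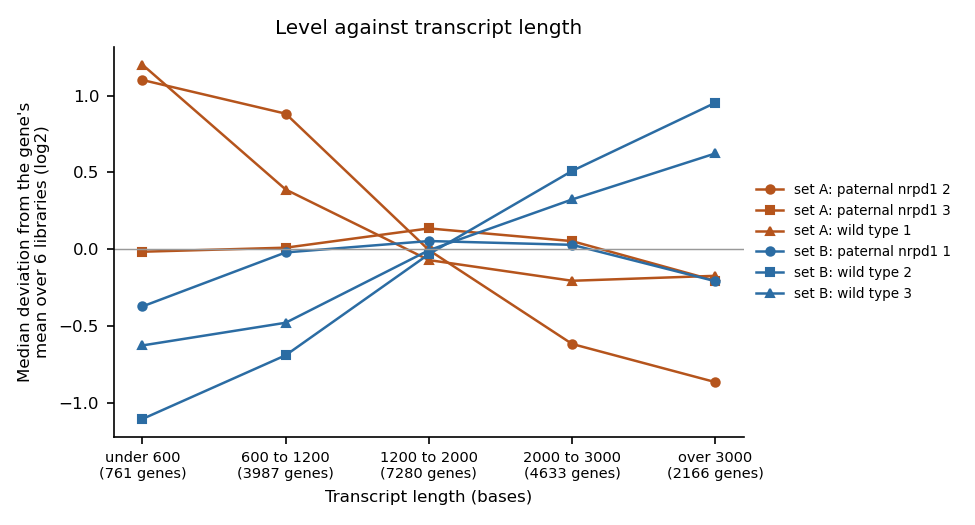
Median deviation of each library from the gene's mean over the 6 libraries (log2, y axis) in 5 classes of transcript length (x axis), with set A in orange and set B in blue. Paternal nrpd1 replicate 2 and wild-type replicates 2 and 3 run steeply in opposite directions, while paternal nrpd1 replicates 3 and 1 stay near 0 above 600 bases.

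Seed storage genes were lower in set A. All 12 listed storage protein and oleosin genes passed the filter and all 12 had a negative difference, with a median of -3.46 as scaled and -3.46 after length adjustment, against medians of -0.02 and 0.01 over all genes. Their median level was 6.67, 0.897 and 26.5 CPM in set A and 85.7, 246 and 120 CPM in set B. Of the 12, 6 were separated as scaled and 7 after length adjustment. CRU2, CRU3, SESA5 and PAP85 stayed under 1 CPM in set A. CRU2 and PAP85 passed the filter mainly through set B, where they had to be higher. CRU3 (0 CPM in paternal nrpd1 replicate 1 of set B) and SESA5 (0.651 CPM there) overlapped between the sets as scaled. The list's counts and medians include these genes, with CRU2 and PAP85 among the separated ones. The other members were all lower in set A on average, from -0.71 (OLEO2) to -5.74 (SESA3). The list's median ran from -4.57 without paternal nrpd1 replicate 1 to -2.31 without wild-type replicate 2. The promoters of 3 genes are shown here for the letters they carry, since the RY element, bound by the LEC2, FUS3 and ABI3 family of seed regulators, is the best known motif of storage protein genes. They are the 250 bases before the RefSeq gene start in TAIR10.1, 5′ to 3′ on the gene's strand. Capitals mark the RY core CATGCA on either strand (its reverse is TGCATG, and matches may overlap) in SESA3 and CRA1, and a heat shock element (GAANNTTC or TTCNNGAA) in HSP17.6A, which is described further on.
SESA3 (chr4:13611546-13611795, strand +): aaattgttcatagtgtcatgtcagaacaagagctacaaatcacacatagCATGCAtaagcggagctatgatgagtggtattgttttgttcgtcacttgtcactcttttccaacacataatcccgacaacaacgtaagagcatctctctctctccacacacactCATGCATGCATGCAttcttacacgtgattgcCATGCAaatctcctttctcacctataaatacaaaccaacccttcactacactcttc
CRA1 (chr5:17758337-17758586, strand -): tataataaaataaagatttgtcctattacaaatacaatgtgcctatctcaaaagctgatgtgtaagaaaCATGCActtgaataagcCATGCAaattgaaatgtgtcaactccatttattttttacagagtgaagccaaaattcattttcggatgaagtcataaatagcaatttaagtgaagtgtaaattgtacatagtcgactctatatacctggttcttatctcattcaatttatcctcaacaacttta
HSP17.6A (chr5:3884839-3885088, strand -): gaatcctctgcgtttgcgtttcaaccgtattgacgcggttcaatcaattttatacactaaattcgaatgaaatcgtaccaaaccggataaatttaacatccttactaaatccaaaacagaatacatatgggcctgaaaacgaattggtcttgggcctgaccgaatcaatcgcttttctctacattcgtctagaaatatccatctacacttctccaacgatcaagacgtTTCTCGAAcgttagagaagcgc

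The RY core occurred in the 250-base windows of 11 of the 12 storage genes, counting SESA3 with 7 matches and CRA1 with 2, and in 7.30% of the windows of all genes that passed. SESA3, a 2S albumin, had 5.64, 1.00 and 48.7 CPM in set A, against 360, 594 and 210 CPM in set B (log2 difference -5.74, length adjusted -6.87). CRA1, a 12S globulin (cruciferin), had 27.0, 3.40 and 25.0 CPM in set A, against 182, 730 and 334 CPM in set B (-4.73, length adjusted -4.57). Of both genes, the highest value in set A was below the lowest in set B. SESA2 and SESA4 differed by -4.79 and -5.37 (length adjusted -5.92 and -6.64). However, SESA2, SESA3 and SESA4 are neighbouring genes of the same family, so reads that match several of them may be missing from or misplaced in these counts. SESA1 was not separated, with 212, 21.0 and 57.3 CPM in set A and 85.6, 183 and 136 CPM in set B. The oleosins, which coat oil bodies, were not separated. OLEO1 had 102, 75.1 and 294 CPM in set A and 172, 482 and 258 CPM in set B (-1.08, length adjusted -2.06), and OLEO2 had 326, 179 and 536 CPM in set A and 365, 653 and 580 CPM in set B (-0.71, length adjusted -1.69). In both oleosins wild-type replicate 1 of set A reached levels of set B.

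Late maturation genes, which protect the drying seed, were partly measurable. Of 11 listed, 6 passed the filter, some of them mainly through set B, as CLO1 did with 0.0778, 0.0264 and 1.25 CPM in set A and 4.84, 7.81 and 3.32 CPM in set B, so no count of this list is used. ECP63, a late embryogenesis abundant protein, had 26.6, 35.3 and 34.9 CPM in set A, against 60.9, 112 and 104 CPM in set B (-1.48, length adjusted -1.39). PER1, a seed peroxiredoxin, had 3.77, 2.19 and 9.48 CPM in set A and 10.02, 28.1 and 13.7 CPM in set B (-1.86, length adjusted -2.51). RAB28 ran the other way as scaled, with 13.8, 7.20 and 8.27 CPM in set A and 9.62, 3.58 and 4.58 CPM in set B (0.79, length adjusted -0.55). EM1, EM6, M10, M17 and RAB18, markers of the driest stage, stayed below the filter in both sets.

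The regulators of these genes did not show such a gap. Of 13 listed maturation regulators 12 passed and none was separated, with a median difference of -0.24 and -0.15 after adjustment. FUS3 had 116, 102 and 104 CPM in set A and 116, 153 and 125 CPM in set B (-0.28, length adjusted -0.23). ABI3 had 27.9, 39.6 and 38.5 CPM in set A and 44.0, 76.4 and 53.3 CPM in set B, and its difference went from -0.69 to 0.12 with length adjustment. LEC1 had 799, 578 and 418 CPM in set A and 331, 270 and 425 CPM in set B (0.78, length adjusted -0.10). Of the 18 oil synthesis genes, 3 were separated with set A lower and 1 with set A higher. Their median difference was -0.43 as scaled and 0.05 after length adjustment, where 11 were positive and 2 were separated with set A lower. FAE1, which elongates seed fatty acids, had 465, 648 and 596 CPM in set A, against 1594, 994 and 1083 CPM in set B (-1.09, length adjusted -1.04). SUS2, a sucrose synthase of filling seeds, had 12.3, 11.7 and 38.0 CPM in set A, against 80.4, 180 and 128 CPM in set B (-2.80, length adjusted -1.98).

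Members of 2 further lists were also separated with set A lower. The sugar transport list of 6 genes had a median of -0.57 (length adjusted -0.50), with 2 positive, 1 separated with set A higher (SWEET4, at most 0.895 CPM) and 1 with set A lower. The lower gene, SWEET11, a sugar exporter that feeds the embryo, had 689, 380 and 918 CPM in set A, against 2751, 1435 and 1512 CPM in set B (-1.54, length adjusted -1.74). ALPHA-VPE, a vacuolar processing enzyme of the cell death list, had 123, 105 and 198 CPM in set A, against 465, 313 and 268 CPM in set B (-1.31, length adjusted -1.15). Of that list 11 of 13 genes passed, 9 of them with a negative difference and 2 of them separated with set A lower (median -0.55, length adjusted -0.69). CEP1, a cysteine protease of dying cells, had 338, 227 and 460 CPM in set A and 680, 658 and 505 CPM in set B.

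Genes of cell division ran the other way by small amounts. All 20 listed genes passed, and 17 had a positive difference as scaled and 18 after adjustment. The median was 0.41 as scaled and 0.51 after adjustment. None was separated as scaled, and after adjustment 3 were (CYCA1;1, CDC20.2 and HIK). CDKB2;1, a mitotic kinase, had 73.5, 88.0 and 77.1 CPM in set A, against 40.5, 49.6 and 50.9 CPM in set B (0.76, length adjusted 0.47). KN, the syntaxin of the cell plate, had 314, 318 and 328 CPM in set A, against 243, 255 and 253 CPM in set B (0.35, length adjusted 0.16). For both genes every library of set A was above every library of set B, by less than 2-fold. Without any scaling factor the median over all genes was -0.38 and that of the division list 0.05.

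Early endosperm genes, most of them of the type I MADS-box family that marks the syncytial stage, were near the limit of detection. Of 14 listed genes 5 passed, with a highest level of 3.53 CPM, reached by FIS2 in wild-type replicate 2. PHE1 had 0.661, 1.56 and 3.22 CPM in set A and 0, 0 and 0.454 CPM in set B. AGL28 had 1.91, 1.61 and 1.48 CPM in set A and 0.849, 0.180 and 0.419 CPM in set B. FIS2, a Polycomb gene of early endosperm, had 0.622, 1.24 and 1.65 CPM in set A and 0.255, 3.53 and 2.06 CPM in set B (-0.22), overlapping. AGL62, which holds back cell formation, did not pass, and its levels lay between 0.134 and 0.350 CPM over the 6 libraries. A gene that passes only through the libraries where it is high has to differ, so no median of this list is used.

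**Figure D2:**
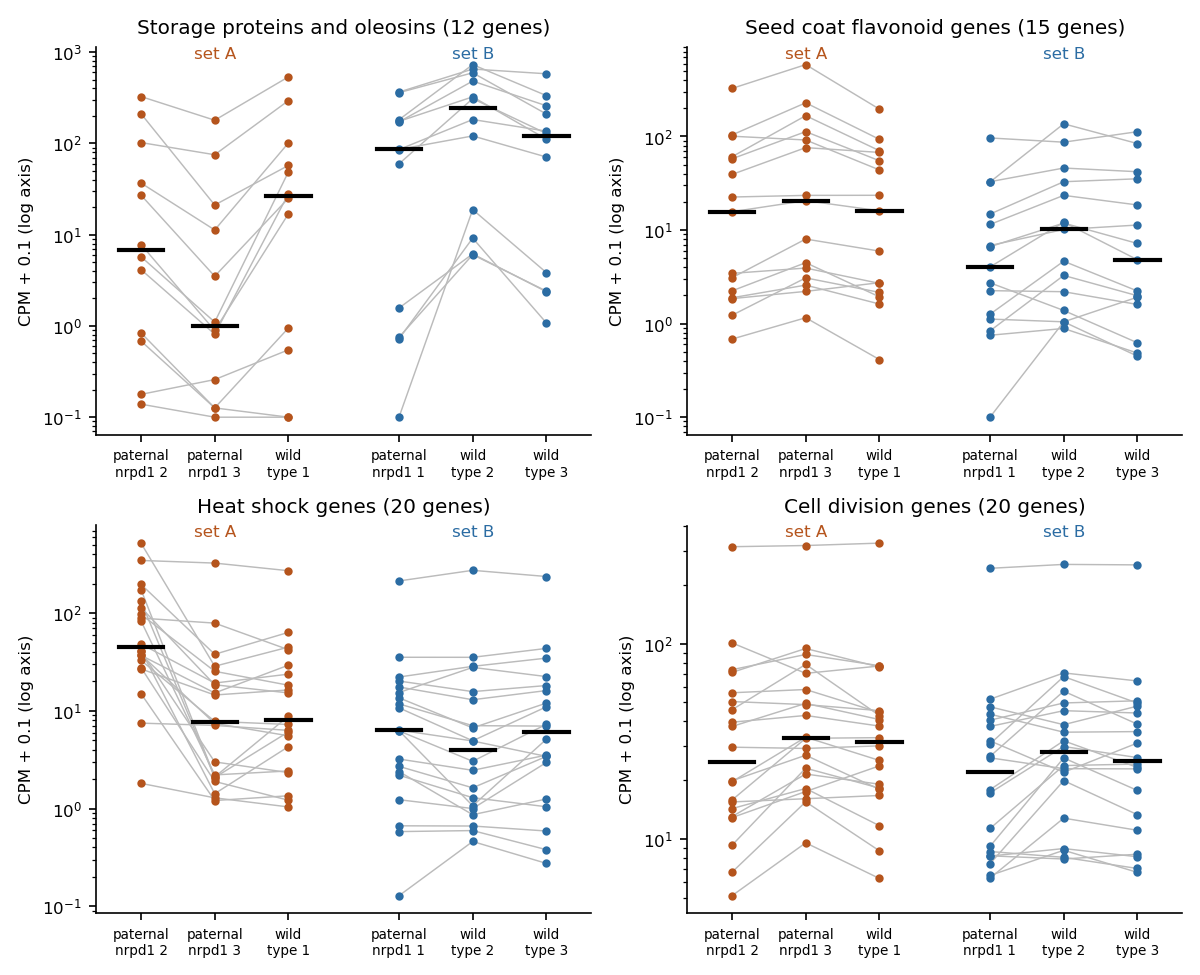
Level of each listed gene that passed the filter (points, CPM + 0.1 on a log axis) in the 6 libraries, with set A at left and set B at right of each panel. Grey lines join a gene within a set and black bars mark the list's median in a library. The storage genes have medians of 6.67, 0.897 and 26.5 CPM in set A and 85.7, 246 and 120 CPM in set B, and the heat shock median of paternal nrpd1 replicate 2 (44.8 CPM) is above that of the other 5 libraries.

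Markers of endosperm and of its neighbours were measured in the same libraries. Endosperm markers were present in all 6 libraries. The sugar carrier SUC5 had 279, 305 and 352 CPM in set A and 260, 332 and 281 CPM in set B. ZOU, the regulator of endosperm breakdown, had 44.4, 42.3 and 60.2 CPM in set A and 53.9, 57.1 and 41.3 CPM in set B. Neither gene separated the sets. EPR1, an extensin-like protein of the endosperm and a member of the same list, was separated with set A lower, at 382, 474 and 771 CPM in set A, against 1087, 4360 and 3186 CPM in set B (-2.25, length adjusted -1.70). The list's median difference was -0.14 (length adjusted 0.09; 6 of 9 genes passed). Embryo markers summed to 121, 104 and 119 CPM in set A and to 194, 190 and 211 CPM in set B, with no overlap. Most of that sum came from WOX9, a regulator of the early embryo, with 45.0, 59.5 and 56.9 CPM in set A and 99.9, 96.9 and 109 CPM in set B, and from CUC1. Of 21 embryo markers 10 passed, 5 with a positive and 5 with a negative difference (median -0.34, length adjusted -0.10), and none was separated as scaled, while after adjustment CUC1 was separated with set A lower and ATML1 with set A higher. CUC2, a marker of the embryo apex, was listed at 0 in all 6 libraries. CUC1, its close relative, had 44.2, 9.97 and 14.2 CPM in set A and 56.0, 29.2 and 50.3 CPM in set B. The part of embryo tissue in the storage gene difference was not tested.

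Flavonoid genes of the seed coat were higher in set A. Of 16 listed genes 15 passed, 13 of them with a positive difference and 9 of them separated with set A higher. The median was 1.49, and after length adjustment 1.14 with 8 separated and all 15 positive. Their summed level was 740, 1333 and 582 CPM in set A and 213, 373 and 324 CPM in set B. BAN, the reductase specific to proanthocyanidin synthesis, had 57.6, 113 and 55.0 CPM in set A, against 11.4, 23.4 and 18.4 CPM in set B (2.06, length adjusted 1.91). TT4, chalcone synthase, had 326, 586 and 196 CPM in set A, against 96.4, 86.9 and 112 CPM in set B (1.77, length adjusted 1.86). TT19, a glutathione transferase that carries flavonoids, had 101, 91.7 and 43.8 CPM in set A, against 6.74, 10.04 and 11.2 CPM in set B (3.01, length adjusted 2.40). TT10, the laccase that browns the coat later on, did not follow, with 39.2, 75.9 and 67.5 CPM in set A and 32.5, 137 and 84.0 CPM in set B. TT12, a vacuolar transporter of the pigment precursors, stayed below the filter.

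These genes were read almost wholly from the maternal allele. Maternal share is the percentage of Ler counts among the counts given to either allele. Every cross had a Ler mother and a Col father, so an effect of the strain and one of the parent cannot be told apart. Pooled over the flavonoid list it was 99.8%, 100% and 99.6% in set A and 99.2%, 99.5% and 99.9% in set B. The mucilage list of the outer coat layer had pooled maternal shares of 91.9%, 90.8% and 87.4% in set A and of 83.2%, 82.2% and 77.4% in set B, with no overlap. A pooled share weighs genes by their counts, so it also depends on the totals that the choice used. PMEI6, described next, gave 817 of the list's 2726 allele counts in paternal nrpd1 replicate 2 and 138 of 3568 in wild-type replicate 2. Levels of the mucilage list did not move as a group, with a median difference of -0.36 as scaled and 0.40 after adjustment over 11 of 12 genes, but 2 members were separated. PRX36, a peroxidase that loosens the mucilage cell wall, had 68.8, 81.7 and 16.1 CPM in set A, against 2.63, 1.40 and 6.08 CPM in set B (3.96, length adjusted 3.60). PMEI6, a pectin methylesterase inhibitor of the same cells, had 157, 74.8 and 46.5 CPM in set A, against 27.2, 12.7 and 17.61 CPM in set B (2.16, length adjusted 1.39). How much seed coat each dissection carried was not measured apart from these genes, so the part of tissue mix in the other differences was not tested.

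Heat shock genes were higher in set A, with the highest levels in 1 library. Of 22 listed genes 20 passed, 18 of them positive and 9 of them separated with set A higher, with a median difference of 1.84 (length adjusted 1.44, 8 separated). Their median level was 44.8, 7.52 and 7.94 CPM in set A and 6.21, 3.88 and 5.96 CPM in set B. Without paternal nrpd1 replicate 2 the median difference was 0.88, or 0.58 after adjustment, and 7 of the 20 were separated, where 9.02% of all genes were. AT1G07400, a small heat shock protein, had 521, 28.5 and 44.8 CPM in set A, against 10.6, 4.84 and 10.9 CPM in set B (3.39, length adjusted 2.48). MBF1C, a heat response coactivator, had 197, 37.8 and 63.5 CPM in set A, against 13.5, 6.60 and 11.9 CPM in set B (2.93, length adjusted 2.31). HSP90.1, a chaperone, had 88.9, 79.0 and 42.2 CPM in set A, against 15.3, 27.8 and 22.3 CPM in set B (1.65, length adjusted 1.98). In these 3 genes all 3 libraries of set A were above set B. HSP17.6A, whose promoter is printed above, had 174, 2.01 and 8.72 CPM in set A and 1.13, 0.9004 and 2.87 CPM in set B, so only paternal nrpd1 replicate 2 stood far from the rest. A heat shock element was found in 9 of 22 windows of the list, none in that of AT1G07400, and in 15.7% of the windows of all genes that passed.

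Other stress lists had smaller median differences. Of 18 wounding, touch and cold genes that passed of 24 listed, none was separated as scaled (median 0.18, length adjusted 0.13). JAZ1, a repressor induced by jasmonate, had 96.2, 85.1 and 80.1 CPM in set A and 80.1, 94.9 and 71.4 CPM in set B. TCH2, a calmodulin-like protein induced by touch, had 454, 207 and 346 CPM in set A and 169, 178 and 149 CPM in set B (0.95, length adjusted 1.05). Of 16 abscisic acid and drought genes that passed of 18, RD22, a dehydration-responsive gene, was separated (137, 231 and 155 CPM in set A, against 61.4, 84.3 and 54.5 CPM in set B). ERD10, a dehydrin, had 63.9, 43.7 and 82.6 CPM in set A and 69.6, 345 and 247 CPM in set B, high in wild-type replicates 2 and 3 alone. The low oxygen list had a median difference of -0.40 (length adjusted -0.57), and its 2 separated genes, the sucrose synthases SUS1 and SUS4, were no longer separated after adjustment. The endoplasmic reticulum folding list was at 0.01 (length adjusted 0.47), and 0 of its 7 genes that passed were separated.

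Small RNA pathway genes, the subject of the series, were lower in set A as scaled and not after adjustment for length. All 22 genes of RNA-directed DNA methylation passed, with a median transcript length of 3456 bases. As scaled, 20 were negative and 6 separated with set A lower, at a median of -0.85. The 6 separated were 2 without paternal nrpd1 replicate 2 (median -0.58), 9 without wild-type replicate 1 (median -1.004), 14 without paternal nrpd1 replicate 1 (median -1.20) and 3 without wild-type replicate 2 (median -0.66). The share of all genes separated with set A lower moved as well, to 4.99%, 9.70%, 15.3% and 6.46% in the same order. By contrast, after adjustment 11 were negative, 11 positive and 0 separated, at a median of -0.02. AGO4, which binds the small RNAs, had 50.6, 130 and 110 CPM in set A, against 132, 338 and 298 CPM in set B (-1.40, length adjusted -0.59). DRM2, the methyltransferase they guide, had 21.0, 30.2 and 31.3 CPM in set A, against 60.5, 69.1 and 59.9 CPM in set B (-1.22, length adjusted -0.66). NRPD1 itself (AT1G63020, chromosome 1 from 23354685 to 23362589 in TAIR10.1) had 1.79, 4.17 and 8.41 CPM in set A and 5.89, 10.4 and 10.4 CPM in set B (-1.10, length adjusted -0.36). Paternal nrpd1 libraries averaged 3.95 CPM of NRPD1 and wild type 9.74 CPM (log2 difference -1.30, edgeR adjusted p = 0.616). ROS1, a demethylase, kept a separation after adjustment, with 19.1, 26.3 and 47.7 CPM in set A, against 54.1, 204 and 136 CPM in set B (-1.98, length adjusted -1.11).

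**Figure D3:**
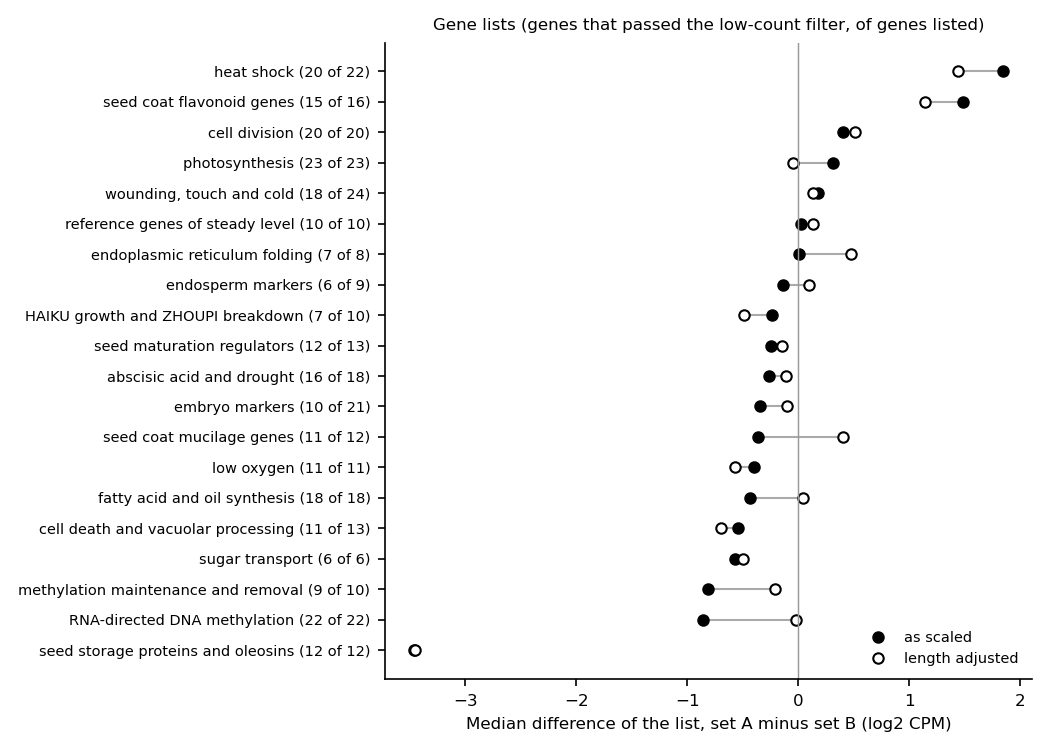
Median difference of 20 gene lists, set A minus set B, in log2 CPM (x axis), as scaled (filled circles) and after length adjustment (open circles), with the number of genes that passed of those listed. The early endosperm and late maturation lists, in which genes passed through 1 set, are not drawn. The storage list is drawn, although CRU2 and PAP85 passed mainly through set B. Storage genes stay at -3.46, while the DNA methylation list moves from -0.85 to -0.02.

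Among genes with a mean of at least 10 CPM, those with the largest differences were mostly short where set A was higher. The 12 named higher genes had a median length of 799 bases and the 12 named lower genes 1672 bases. LP1, a lipid transfer protein, had 48.1, 16.5 and 6.93 CPM in set A, against 0, 0.158 and 1.01 CPM in set B. MLP328, of the major latex protein family, had 39.6, 42.2 and 14.8 CPM in set A, against 0.113, 0.428 and 2.66 CPM in set B (5.57, length adjusted 4.60). AT4G15750, a pectin methylesterase inhibitor family member, had 686, 436 and 278 CPM in set A, against 22.5, 17.5 and 30.0 CPM in set B (4.26, length adjusted 3.13). THI2.1, a thionin, and LCR50, a small cysteine-rich protein, were 4.09 and 4.18 higher (length adjusted 3.21 and 2.72), but LCR50 was no longer separated after length adjustment. The other named genes higher in set A were AT5G52655, AT1G48195, AT1G24212, AT1G74675, AT4G17215, AT3G49270 and AT3G28853. LP1, MLP328, THI2.1, LCR50, AT5G52655, AT1G24212, AT3G49270 and AT3G28853 stayed under 10 CPM in every library of set B. They reached the mean of 10 CPM only through set A, where they had to be higher. AT1G48195, AT1G74675 and AT4G17215 reached it mainly through set A too.

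The lower genes, besides SESA2, SESA3, SESA4, CRA1 and SUS2, included membrane and wall proteins. FLA1, a fasciclin-like arabinogalactan protein, had 4.12, 4.91 and 27.4 CPM in set A, against 47.4, 81.8 and 53.9 CPM in set B (-2.84, length adjusted -2.76). SUC2, a sucrose-proton symporter, had 9.14, 6.78 and 20.3 CPM in set A, against 39.5, 125 and 82.4 CPM in set B (-2.77, length adjusted -2.40). RLP55, a receptor-like protein, had 0.661, 0.0792 and 6.40 CPM in set A, against 8.86, 33.6 and 21.4 CPM in set B. AT1G62225, AT2G23400, AT1G62290 and AT1G26680 complete the 12, and all 12 remained separated after adjustment. In most of the 12 genes wild-type replicate 1 was the highest library of set A. RLP55, AT1G62225, AT1G62290 and AT1G26680 stayed under 10 CPM in every library of set A. They reached the mean of 10 CPM only through set B, where they had to be higher.

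Maternal share, which the choice of sets did not use, was then tested, as were shares of reads by how they were assigned. The median maternal share over 7371 genes with at least 20 allele counts on average was 67.3%, 67.2% and 66.7% in set A and 68.9%, 66.9% and 66.7% in set B. The mean difference of -0.43 percentage points did not pass a two-sided exact permutation test (p = 0.8, where 3 against 3 cannot go below 0.1). Reads that fell in no gene made up 1.49%, 1.26% and 1.66% of counts in set A, against 1.06%, 1.18% and 1.12% in set B. The sets did not overlap in that share, and the exact permutation p was 0.1, the smallest the design allows. Shares of reads with several positions (8.72% to 9.33% in set A, 8.35% to 8.73% in set B), ambiguous reads and allele-assigned reads each gave an exact p of 0.2. These read shares, with that of reads in no gene, come from or are set over the total counts that the choice used. Their p-values are thus not independent of the choice, and nothing is concluded from them.

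Per gene, maternal share differed between the sets for 11 of 7371 genes (0.149%; edgeR quasi-likelihood test on Ler and Col counts, Benjamini-Hochberg adjusted p under 0.05), 6 with a higher share in set A and 5 with a lower one. The count fell to 6 without wild-type replicate 1, to 2 without wild-type replicate 2, to 3 without wild-type replicate 3, to 5 without paternal nrpd1 replicate 2 and to 4 without paternal nrpd1 replicate 3. PMEI6 of the seed coat list had maternal shares of 98.7%, 99.4% and 95.9% in set A, against 79.8%, 82.6% and 91.6% in set B (adjusted p = 0.00337 in edgeR), on 107 to 817 allele counts per library. AT5G62210, annotated as an embryo-specific protein, had 99.5%, 99.1% and 98.8% in set A, against 93.4%, 86.8% and 84.8% in set B (edgeR adjusted p = 0.0271). Both genes also had higher totals in set A (log2 differences 2.16 and 2.53).

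PIP2A, a water channel of the plasma membrane, had maternal shares of 84.5%, 95.2% and 83.3% in set A, against 71.1%, 66.2% and 64.3% in set B (edgeR adjusted p = 0.0271), while its total differed by -0.22. ASPG1, an aspartic protease, had 83.7%, 90.5% and 84.9% in set A, against 72.7%, 74.9% and 76.4% in set B (edgeR adjusted p = 0.0295), with a total difference of -0.14. GAMT1, which methylates gibberellins, had 100%, 100% and 98.2% in set A, against 90.7%, 93.1% and 88.2% in set B. For these 3 genes the share differed while the total was not separated. Shares lower in set A belonged to AT2G21130 (a cyclophilin, 93.9% to 95.1% in set A, against 96.3% to 96.9% in set B), AT3G02700, AT1G66260 and AT3G48660. AT1G66260, an RNA-binding protein, had 72.1%, 77.7% and 76.8% in set A, against 86.1%, 84.2% and 84.5% in set B. AT1G53282, a thionin family gene, had no maternal count in 4 libraries and 27.0% and 20.9% in paternal nrpd1 replicate 1 and wild-type replicate 2 of set B.

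**Figure D4:**
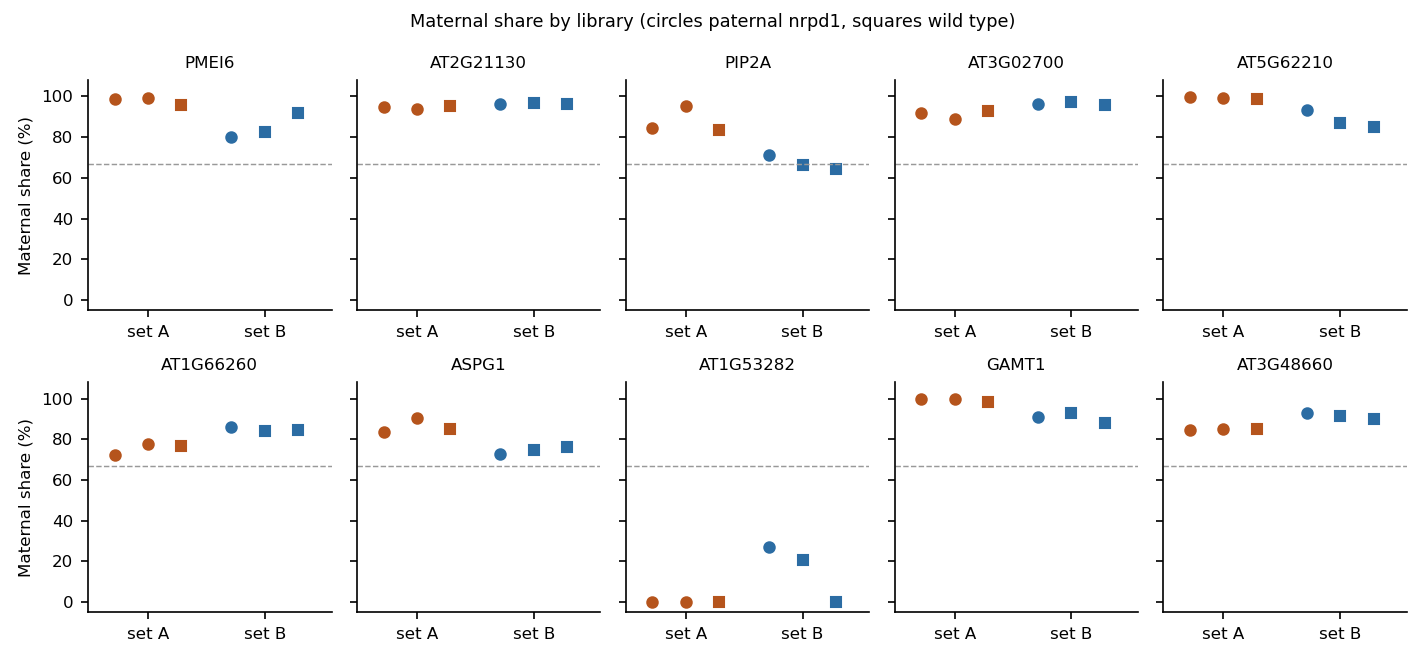
Maternal share (percent, y axis) in each library for the 10 genes with the lowest adjusted p, with set A in orange at left and set B in blue at right. Circles are paternal nrpd1, squares wild type, and the dashed line marks the share of equal expression from all genome copies. PIP2A lies between 83.3% and 95.2% in set A and between 64.3% and 71.1% in set B.

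The genotype comparison ran across the sets. Of 18901 genes 0 (0%) differed between paternal nrpd1 and wild type in edgeR at an adjusted p under 0.05. Another 1496 had an unadjusted p under 0.05, and the lowest adjusted p was 0.410. DESeq2, another count model, called 8 genes.

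In experiment 1, whose libraries had no part in the choice, median storage and division levels ranked the 5 libraries in opposite order. Median storage levels were 1535, 2928 and 1445 CPM in homozygous nrpd1 replicates 1, 2 and 3 and 1068 and 1671 CPM in wild-type replicates 1 and 2. Median division levels were 38.9, 26.7 and 40.4 CPM in homozygous nrpd1 and 41.6 and 38.0 CPM in wild type. Homozygous nrpd1 replicate 2 thus had the highest storage level and the lowest division level, wild-type replicate 1 the reverse, and the late maturation median of homozygous nrpd1 replicate 2 was 780 CPM, against 75.3 to 155 CPM in the other 4 libraries. Flavonoid genes of the seed coat had medians of 42.3, 24.3 and 15.9 CPM in homozygous nrpd1 and 23.3 and 13.2 CPM in wild type, with homozygous nrpd1 replicate 1 highest. Across 17158 genes, the deviations of these libraries correlated with the set A minus set B difference at r = 0.312 in homozygous nrpd1 replicate 1 (0.301 with the length-adjusted difference), -0.013 in homozygous nrpd1 replicate 2 (-0.066) and 0.021 in homozygous nrpd1 replicate 3 (-0.106), and at -0.015 in wild-type replicate 1 (0.065) and -0.294 in wild-type replicate 2 (-0.185). Homozygous nrpd1 replicate 2 and wild-type replicate 1, the ends of the storage and division order, were thus near 0. The values furthest from 0 were those of homozygous nrpd1 replicate 1 and wild-type replicate 2, which lay between these ends. How that order relates to the sets was not tested. Kit and normalization differ between the experiments, so levels are not compared across them.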

How the data were processed

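Each experiment 2 library has a deposited table of whole-number counts per feature, in total and by Col or Ler allele. Per the submitters' processing notes, the build was TAIR10 and the tools TopHat, HTSeq, Trim Galore, cutadapt and FastQC. Counting strand and allele assignment are not given in the sources used here, so overlapping genes and near-identical copies are uncertain. Of 37336 features 37051 matched the TAIR10.1 RefSeq annotation. The 5 summary lines (11.6% to 13.3% of counts) were left out of library sizes.

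Set membership, members and the 22 gene lists (323 entries) were chosen with earlier results of these data known. Genotype and maternal share were tested with edgeR 4.0.16 (R 4.3.3, TMM, filterByExpr, quasi-likelihood, two-sided, Benjamini-Hochberg), the share with 1 term per library on genes with at least 20 allele counts on average. Steps were tested on simulated data. Log2 CPM used a prior count of 2. Length adjustment was added after seeing the data. Named genes are the 12 largest differences each way among non-overlapping genes with a mean of at least 10 CPM, the 4 highest of each list, up to 10 genes of each test, and NRPD1; list members beyond these were chosen after their values were seen. Alternatives were DESeq2 1.42.0, RLE factors, no filter, other minimums, a replicate block and leaving out each library.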

Additional observations from a re-analysis of the deposited data

Results flagged for a closer look

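Flagged here are 4 of the gene lists in which the set A minus set B difference had opposite signs within the genotypes, with no overlap between the libraries concerned. None of these differences was tested, and within each genotype 1 library stands against 2: set B has 1 library in paternal nrpd1, and set A has 1 in wild type. Values are medians of the list's log2 deviations. For the HAIKU growth and ZHOUPI breakdown list, set A minus set B was -0.60 in paternal nrpd1 and 0.12 in wild type, apart by -0.73. For the wounding, touch and cold list it was 0.76 in paternal nrpd1 and -0.23 in wild type, apart by 0.99. For the abscisic acid and drought list it was 0.20 in paternal nrpd1 and -0.50 in wild type, apart by 0.69. For the low oxygen list it was -0.64 in paternal nrpd1 and 0.19 in wild type, apart by -0.83. These values are as scaled. After length adjustment the HAIKU and ZHOUPI list no longer had opposite signs. Its median deviation was then -0.62 and -0.29 in set A and 0.24 in set B within paternal nrpd1. Within wild type it was 0.19 in set A and 0.20 and 0.35 in set B. The other flagged lists kept opposite signs. By medians of per-gene differences, further lists had opposite signs too. The seed coat mucilage list was at 0.36 in paternal nrpd1 and -0.26 in wild type. The endoplasmic reticulum folding list was at 0.007 and -0.20, and a list of reference genes at -0.13 and 0.02.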

How the results depend on the processing

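The genotype count of 0 in edgeR was also 0 with RLE factors, no filter on low counts, the set (chosen from the same counts) as a term, a length offset with or without the set, and each library left out, and it was 8 in DESeq2. A replicate block gave 0 as well. Numbers do not pair these libraries, since deviations of same-numbered libraries correlated at -0.461, -0.630 and 0.108 for replicates 1, 2 and 3. Genes separated with set A higher numbered 952 after length adjustment, 1209 without scaling factors and 1705 to 3084 with a library left out. Those with set A lower numbered 579, 2364 and 944 to 2896 under the same changes. The share of separated genes that were higher in set A was 56.8%, and 33.8% without scaling factors, where the median over all genes was -0.38. RLE factors, a prior count of 0.5 and no filter kept both counts within 1.5 times. The maternal share count of 11 was 2 to 15 with a library left out, 11 at a minimum of 10 allele counts, 8 at 50 and 14 with a genotype term. The cause of these moves was not tested. A difference at low levels, such as the MADS-box genes, is limited by depth.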

Other observations

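Genes of 4 families were picked by their annotated product after the values were seen. Of 34 low-molecular-weight cysteine-rich genes that passed, 22 were separated with set A higher, and 12 after length adjustment, where their median difference was 0.84. Their median transcript length was 362.5 bases, and 42.8% of all genes under 600 bases were separated with set A higher as scaled. LCR73 had 587, 190 and 799 CPM in set A, against 13.8, 20.9 and 97.2 CPM in set B. Of 47 lipid transfer protein genes, 24 were separated with set A higher and 1 with set A lower, and 11 and 4 after adjustment. The family's median difference was 1.65 as scaled and 0.55 after adjustment. Its median length was 728 bases, and 26.3% of all genes of 600 to 1200 bases were separated with set A higher as scaled. LTP6 had 2542, 1597 and 2154 CPM in set A, against 143, 197 and 223 CPM in set B. Of 271 genes annotated as ribosomal proteins (median length 1021 bases), 95 were separated with set A higher as scaled. That is 35.1%, against 26.3% of all genes of 600 to 1200 bases. After adjustment 8 were, a smaller share than the 5.06% over all genes. Their median difference was 0.98 as scaled and 0.28 after adjustment. Of 60 pectin methylesterase inhibitor genes (median length 1081.5 bases), 17 were separated with set A higher (28.3%) and 4 with set A lower as scaled. Of all genes of 600 to 1200 bases, 26.3% were separated with set A higher and 1.05% with set A lower, so the higher share was near that of genes of like length. After adjustment 9 and 4 were separated, where 5.06% and 3.08% of all genes were. The median difference was 0.26 as scaled and -0.12 after adjustment.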
